A study of Mus musculus with 2 samples.

Results

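The genes described here make up the WNT secretion, coreceptor and planar polarity group: *Porcn*, *Wls*, *Lrp5*, *Lrp6*, *Ror1*, *Ror2*, *Ryk*, *Ptk7*, *Vangl1* and *Vangl2*. The rule took them by gene name, as 10 of the 29924 gene names on the array, and used no measured value. The names were, however, chosen with earlier results of these data known. The array carried 15 probes for them, of which 14 passed the filter on dim signals (the mean over the arrays had to exceed 100 in the control or with IWP-2) and were tested. The dim probe was 1 of the 2 probes of *Ror1*, so all 10 genes remained in the test.

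The tissue was the ureter of newborn (P0) wildtype pups of the NMRI strain, an outbred mouse stock. Explants were kept for 18 h on membranes in medium with 5 µM IWP-2, a small molecule inhibitor of Porcupine, or with the solvent DMSO at a dilution of 1:1000. Each of 2 two-colour Agilent arrays set RNA of a control pool of ureters against RNA of a treated pool from pups of the same sex. In replicate 1 the pools were female, AlexaFluor555 (green) marked the control and AlexaFluor647 (red) the IWP-2 sample. In replicate 2 the pools were male and the dyes were swapped. Sex, dye orientation and array therefore cannot be told apart. With 1 ratio per array, limma combined the spread between these 2 pairs of pools with a spread estimated over all probes tested. Standard errors, intervals and p-values rest on this moderated spread and cover these 2 pairs of pools only. The pools hold whole ureters, with urothelium, smooth muscle and fibrocytes mixed, so fewer cells of a type and less RNA per cell cannot be told apart.

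WNT proteins need a lipid before they can leave the cell. Porcupine, the product of *Porcn*, attaches this lipid in the endoplasmic reticulum, and WLS binds the lipid-bearing ligand and carries it to the cell surface. On the receiving cell LRP5 and LRP6 act with Frizzled receptors to stabilize β-catenin, whereas ROR1, ROR2, RYK and PTK7 bind WNTs or their receptor complexes and are best known from β-catenin-independent signaling. VANGL1 and VANGL2 are membrane proteins of the core planar polarity machinery, which aligns cells within the plane of a tissue. In the ureter, WNT ligands made by the urothelium signal to the surrounding mesenchyme. The arrays of the study screened for transcripts that IWP-2 deregulates, and the comparison made here is how the transcripts of the WNT machinery itself stood with and without the inhibitor.

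The probes read short stretches of these transcripts, and a few are shown. *Porcn* is the gene of the inhibited enzyme, *Ror2*, *Ror1* and *Lrp6* hold the largest mean differences of the group, and the 2 probes of *Ror1* gave different values. Each probe is 60 bases long, and 30 of these bases are given in the letters of the probe, 5′ to 3′. Positions are those of the array files, which use the mouse build mm9. Where a gene has several probes, upstream and downstream are given along the direction of transcription. Capitals mark AATAAA, the canonical signal at which messenger RNAs are cut and polyadenylated.
Porcn: ttgttattgtcgAATAAAagtagaacttac
Ror2: gaatgttcaaaaggaagcaacgttgtacag
Ror1 downstream probe: tataagatgcacAATAAAtcctagaaatat
Ror1 upstream probe: aggaagtgattgaaatggtgcggaagcggc
Lrp6 downstream probe: aagaaaggcatcactgaccaggagtgtctg
Lrp6 upstream probe: cgggagcctcctcaagcagttcttccagta

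The *Porcn* probe lies at chrX:7770977-7771036 on the minus strand, and the *Ror2* probe at chr13:53204795-53204854 on the minus strand. The *Ror1* probes lie on the plus strand at chr4:100114117-100114176 and, 2107 bases further on, at chr4:100116284-100116343. The *Lrp6* probes lie on the minus strand at chr6:134400440-134400499 and chr6:134404723-134404782, 4223 bases apart. The AATAAA letters were searched on the probe strand only and were found in 2 of the 15 probes, against 12.6% of the 39429 probes on the array. They stand in the *Porcn* probe and in the downstream probe of *Ror1*.

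Each array held 157716 spots, with 4 spots for each probe. Spots flagged as outliers were left out (3.319% in replicate 1, 3.218% in replicate 2), and 0 spots were saturated. Between 68.446% and 70.018% of the spots were well above background in a channel. By a separate call per probe, all 15 probes described here were well above background in all 4 channels. Signals below are normalized intensities in arbitrary units, and the brightness of a probe depends on its sequence, so a level was compared only with the same probe in another channel. Changes are log2 fold changes of IWP-2 over control. The reporter of canonical WNT activity, *Axin2*, fell: its signal went from 181 in the control to 42.2 with IWP-2 in replicate 1 and from 154 to 46.7 in replicate 2. Its mean log2 fold change was −1.91 (standard error 0.101, n = 2 arrays, limma adjusted p = 0.00159). A dimmer probe of *Axin2* lay near the floor and was not tested.

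None of the machinery genes passed the test. Limma called 0 of the 14 probes at an adjusted p under 0.05, whereas 0.772% of all 18403 probes tested were called. At an unadjusted p under 0.05, limma gave 4 of the 14 probes (28.6%), and 13.4% of all probes tested. These were *Ror2* and the downstream probe of *Ror1*, both lower with IWP-2, and both probes of *Lrp6*, which were higher. A fold filter with the limits that the study used for reduced expression, 1.5-fold and a control signal above 100, was applied here to the loess-normalized values in each array and in either direction. It was passed by 0 of the 13 probes that met the signal limit, and by 0.401% of all probes that met it. The median log2 fold change of the 14 probes was −0.06, with a range from −0.41 to 0.25, beside a median of −0.00 over all probes tested. The 95% interval of the mean lay within a 1.5-fold change in either direction for 13 of the 14 probes, a share of 92.9%, beside 96.1% of all probes. The exception was the downstream probe of *Ror1*.

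**Figure D1:**
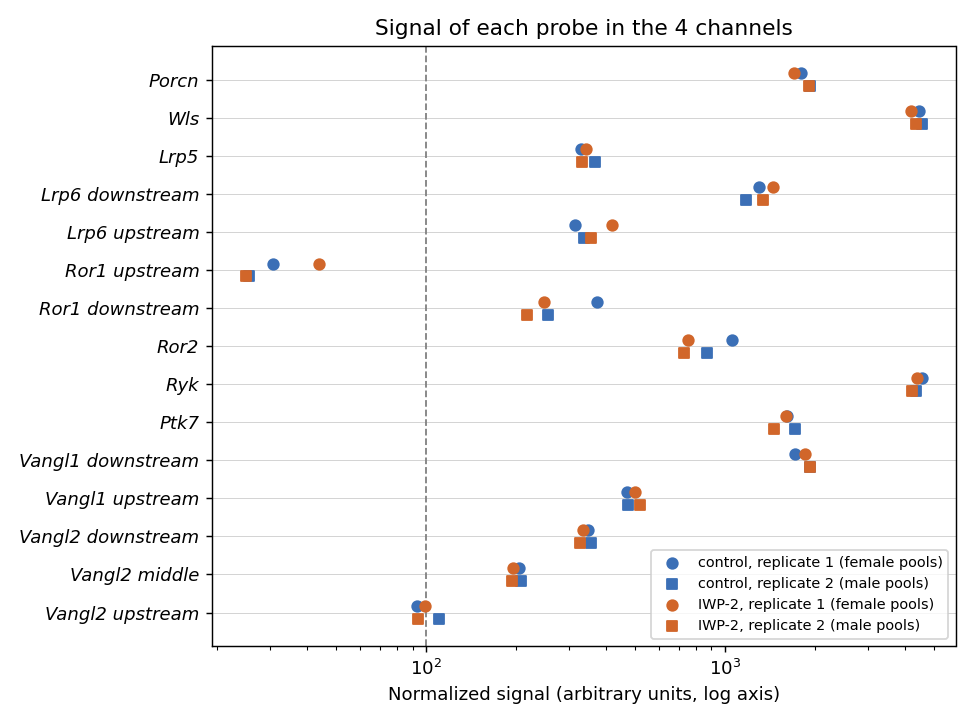
Signal of each of the 15 probes in the 4 channels, on a log axis in arbitrary units, with controls in blue, IWP-2 in orange, replicate 1 (female pools) as circles and replicate 2 (male pools) as squares. The dashed line marks the signal of 100 used in the filter. Control and IWP-2 markers lie close together for most probes and are furthest apart, among tested probes, for the downstream probe of *Ror1* in replicate 1, at 372 and 247.

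The genes of WNT secretion kept nearly the same signal. *Porcn*, which encodes the enzyme that IWP-2 inhibits, read 1791 in the control and 1696 with IWP-2 in replicate 1, and 1920 and 1915 in replicate 2. Control and treated values were closer to each other than the control values of the 2 arrays were. The mean log2 fold change was −0.04, with a 95% interval from −0.21 to 0.13 (limma adjusted p = 0.946), and it was 0.001 when the ratios were centred on their median in place of the loess normalization, so *Porcn* had no settled direction. *Wls* (chr3:159597867-159597926, plus strand), which encodes the carrier of lipid-bearing WNTs, gave 4450 in the control and 4198 with IWP-2 in replicate 1, and 4550 and 4343 in replicate 2. All 7 spots that were kept had a lower signal with IWP-2, but the size of the difference was small. The mean was −0.08, with a 95% interval from −0.24 to 0.09 (limma adjusted p = 0.8). For both genes the interval leaves out a change of 1.5-fold in either direction.

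The canonical coreceptors differed in sign, and neither passed the test. *Lrp6* was read by 2 probes. The downstream probe gave 1297 in the control and 1443 with IWP-2 in replicate 1, and 1171 and 1340 in replicate 2. All 8 of its spots were higher with IWP-2. Its log2 fold changes were 0.15 and 0.19, with a mean of 0.17 (standard error 0.0674, 95% interval 0.01 to 0.34, limma adjusted p = 0.341). The upstream probe went from 315 to 419 in replicate 1 and from 337 to 357 in replicate 2. Its values of 0.41 and 0.08 were further apart, with a mean of 0.25 (standard error 0.0943, 95% interval 0.02 to 0.48, limma adjusted p = 0.334). Averaged over their spots, both probes were thus higher with IWP-2 in both arrays, by amounts below 1.5-fold. For the upstream probe in replicate 2, however, 1 of the 4 spots was lower, with a range from −0.05 to 0.16.

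*Lrp5* (chr19:3584971-3585030, minus strand), the close relative of *Lrp6*, went from 329 to 343 in replicate 1 and from 366 to 331 in replicate 2. The arrays gave opposite signs, 0.06 and −0.14, and each array's 4 spots shared the sign of that array. The mean was −0.04, with a 95% interval from −0.23 to 0.15 (limma adjusted p = 0.957). The difference between *Lrp5* and *Lrp6* was not tested.

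The receptors with kinase or kinase-like domains held the lowest log2 fold changes of the group. *Ror2*, a receptor tyrosine kinase family member that binds WNT5A, read 1051 in the control and 753 with IWP-2 in replicate 1, and 871 and 727 in replicate 2. All 8 spots, which are repeats of 1 probe on 2 arrays, had a lower signal with IWP-2. The log2 fold changes were −0.48 and −0.26, and the mean was −0.37 (standard error 0.0803, 95% interval −0.57 to −0.18). As a ratio this is 0.77 of the control level, with an interval from 0.68 to 0.89. The limma adjusted p was 0.124, above the threshold of 0.05, and 1.33% of all probes tested had a lower mean.

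*Ror1*, the paralog of *Ror2*, gave values that depended on the probe. The downstream probe went from 372 to 247 in replicate 1 and from 255 to 217 in replicate 2. All 8 spots of this probe were lower with IWP-2. The log2 fold changes were −0.59 and −0.24, with a mean of −0.41 (standard error 0.0982, 95% interval −0.65 to −0.18, limma adjusted p = 0.145), and 1.07% of all probes tested had a lower mean. In replicate 1 alone the change was just past 1.5-fold. The upstream probe was dim, with signals of 30.6 in the control and 43.9 with IWP-2 in replicate 1, and of 25.6 and 24.9 in replicate 2. It was above background but below the filter and was not tested, and its log2 fold changes of 0.52 and −0.04 did not share a direction. When all probes of a gene name were averaged, *Ror1* had a mean of −0.09 (limma adjusted p = 0.704). The lower value of *Ror1* thus rests on the downstream probe.

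*Ryk* (chr9:102809441-102809501, plus strand), which encodes a WNT receptor with an inactive kinase domain, showed the closest match between arrays in the group. Its signal was 4550 in the control and 4383 with IWP-2 in replicate 1, and 4351 and 4224 in replicate 2. The mean log2 fold change was −0.05, with a 95% interval from −0.21 to 0.11 (limma adjusted p = 0.919). *Ptk7* (chr17:46701644-46701703, minus strand), which encodes a pseudokinase of planar polarity and WNT signaling, gave 1617 and 1605 in replicate 1 and 1717 and 1453 in replicate 2. The log2 fold changes were −0.01 and −0.24, so its lower value came from the male array. The mean was −0.13, with a 95% interval from −0.32 to 0.07 (limma adjusted p = 0.673). The 4 tested probes of this receptor class had a median of −0.25, and all 4 were below 0 in both arrays. Of all 18403 probes tested, 5109 were below 0 in both arrays. *Ryk* in both arrays and *Ptk7* in replicate 1 lay near 0. The untested upstream probe of *Ror1*, with 0.52 and −0.04, is not in this count.

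**Figure D2:**
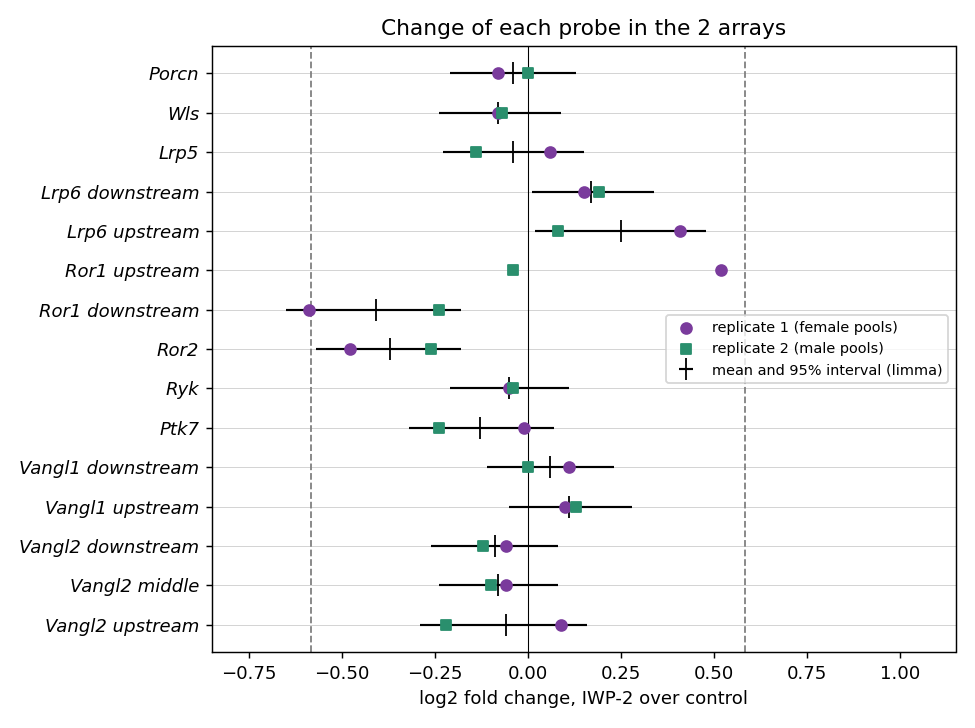
Log2 fold change of IWP-2 over control for each probe in replicate 1 (circles, female pools) and replicate 2 (squares, male pools), with the mean and its 95% interval from limma where the probe was tested. Dashed lines mark a 1.5-fold change in either direction, and the intervals of *Ror2*, the downstream probe of *Ror1* and both probes of *Lrp6* leave out 0 before adjustment for the number of probes.

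The core planar polarity genes showed no common direction and no called change. *Vangl1* was read by 2 probes, at chr3:101960720-101960779 and chr3:101962130-101962189 on the minus strand. The downstream probe gave 1716 in the control and 1856 with IWP-2 in replicate 1, and 1922 and 1928 in replicate 2. The upstream probe gave 468 and 500 in replicate 1, and 473 and 519 in replicate 2. Both *Vangl1* probes had slightly higher means with IWP-2, 0.06 (95% interval −0.11 to 0.23, limma adjusted p = 0.891) and 0.11 (95% interval −0.05 to 0.28, limma adjusted p = 0.616).

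*Vangl2* was read by 3 probes, and all 3 means were slightly below 0. The downstream probe (chr1:173931382-173931441, minus strand) gave 349 and 335 in replicate 1, and 356 and 327 in replicate 2. The middle probe (chr1:173934502-173934561) gave 204 and 195 in replicate 1, and 208 and 194 in replicate 2. Their means were −0.09 (95% interval −0.26 to 0.08, limma adjusted p = 0.744) and −0.08 (95% interval −0.24 to 0.08, limma adjusted p = 0.782). These 2 probes, 3060 bases apart, gave nearly the same value. The upstream probe gave 93 and 99.3 in replicate 1, and 110 and 94 in replicate 2. This probe passed the filter on dim signals only through the control, which leans towards a mean below 0. The upstream probe of *Vangl2* is nevertheless part of the group median. Its log2 fold changes of 0.09 and −0.22 had opposite signs, although the other two probes were below 0 in both arrays.

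Across the group, 12 of the 14 tested probes (85.7%) had the same sign in both arrays, 8 of them below 0 and 4 above 0. Of all probes tested, 55.6% had the same sign in both arrays. Some of the shared signs in the group rest on values next to 0. These include *Porcn* (−0.004) and the downstream probe of *Vangl1* (0.004) in replicate 2, and *Ptk7* (−0.012) in replicate 1. Probes of a gene were counted separately, although they are not independent of each other. The difference between the arrays had a median of 0.09 on the log2 scale over the 14 probes, beside 0.10 over all probes. It was largest among the tested probes for the downstream probe of *Ror1* (0.36) and the upstream probes of *Lrp6* (0.33) and *Vangl2* (0.32).

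**Figure D3:**
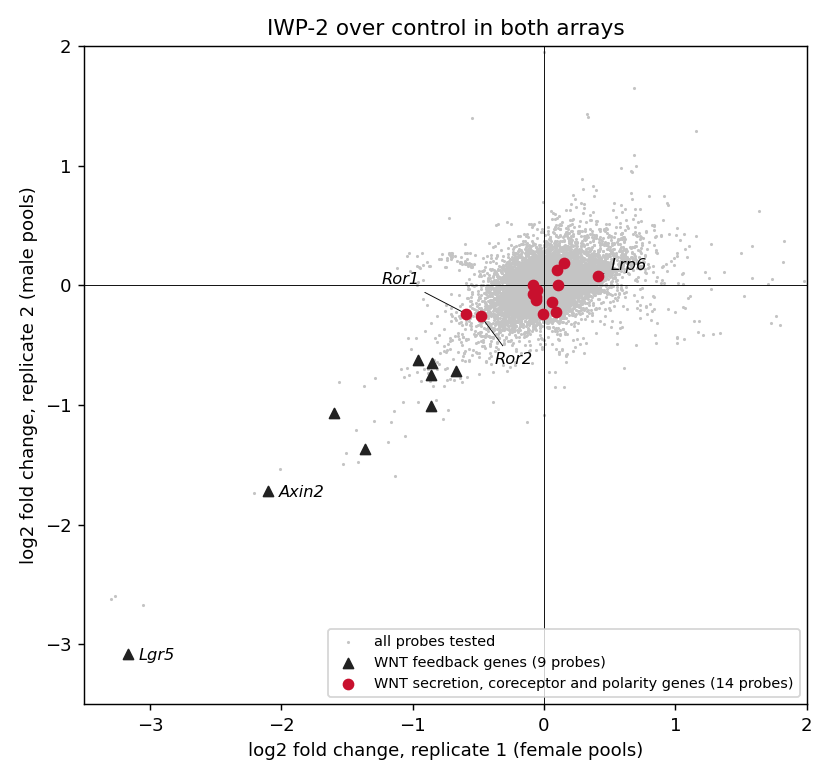
Log2 fold change of IWP-2 over control in replicate 1 (horizontal axis) against replicate 2 (vertical axis) for all 18403 probes tested (grey), the 14 tested probes of the WNT secretion, coreceptor and polarity genes (red) and 9 probes of WNT feedback genes (black triangles). The red points lie within the grey cloud around 0, while the feedback genes lie to the lower left, with *Axin2* at −2.10 and −1.72, and 7 probes fall outside the axes.

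Lists of neighbouring genes, each gene read by its brightest probe, set these values in their pathways. The secretion and acylation list held 18 genes, among them the retromer, which returns WLS from endosomes, the desaturases that make the lipid, and relatives of Porcupine. Limma called 0 of its 16 tested genes, and the median was −0.00. At an unadjusted p under 0.05, 1 gene was higher and 1 was lower. These were the retromer subunit *Vps35*, at 1763 and 2087 in replicate 1 and 1675 and 1907 in replicate 2 (mean 0.22, limma adjusted p = 0.235), and the desaturase *Scd1*, at 956 and 856 in replicate 1 and 912 and 762 in replicate 2 (mean −0.21, limma adjusted p = 0.262). The secretion list therefore had no called gene around *Porcn* and *Wls*.

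The list of LRP coreceptor partners covered chaperones, kinases and antagonists of LRP5 and LRP6 as well as their relative LRP4. Limma called 0 of 16 tested genes, 1 was lower at an unadjusted p under 0.05, and the median was −0.04. *Lrp4*, which encodes an LRP family receptor, went from 800 to 556 in replicate 1 and from 809 to 602 in replicate 2. Its mean of −0.48 (standard error 0.0699) had a limma adjusted p of 0.0524, just outside the threshold. The next largest mean in this list was that of *Adgra2*, a coactivator of WNT7 signaling, at −0.14 (limma adjusted p = 0.606).

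Of the other planar polarity genes, 18 of 22 were tested and limma called 0, with a median of −0.02. At an unadjusted p under 0.05, 3 genes were lower and 1 was higher. *Celsr1*, an atypical cadherin of the core polarity complex, went from 207 to 247 in replicate 1 and from 237 to 321 in replicate 2, with a mean of 0.35 (limma adjusted p = 0.127). *Intu*, a planar polarity effector, went from 188 to 148 and from 164 to 154, with a mean of −0.22 (limma adjusted p = 0.337). These values point in opposite directions and neither passed the test.

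The noncanonical ligands did not share a direction, and their median was −0.28. *Wnt11* went from 126 to 93 in replicate 1 and from 166 to 106 in replicate 2, and it fell by 0.54 on the log2 scale (limma adjusted p = 0.0498, 1 of 4 ligands called). *Wnt5a*, whose product binds ROR1 and ROR2, went from 503 to 763 and from 603 to 795, with log2 fold changes of 0.60 and 0.40. Its mean of 0.50 had a limma adjusted p of 0.0582. *Wnt5a* was thus higher with IWP-2 in both arrays in which *Ror2* was lower, and neither of them passed the threshold. *Wnt5b* had a mean of −0.29 (limma adjusted p = 0.138) and *Wnt4* of −0.26 (limma adjusted p = 0.165).

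The feedback genes of canonical WNT signaling, by contrast, all fell where they could be tested. Limma called 7 of 7 tested genes, *Axin2*, *Lgr5*, *Nkd1*, *Notum*, *Rnf43*, *Tcf7* and *Wif1*, and each also passed the fold filter. Their median was −1.33, with a range from −3.12 to −0.69. *Lgr5* lay at the floor of 15 with IWP-2 in replicate 1, so its value depends on that floor. *Axin2* and *Lgr5* passed the filter on dim signals only through the control. *Sp5* was below the filter and was not tested. This list was written with earlier results of these arrays known and is no independent evidence of its direction.

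**Figure D4:**
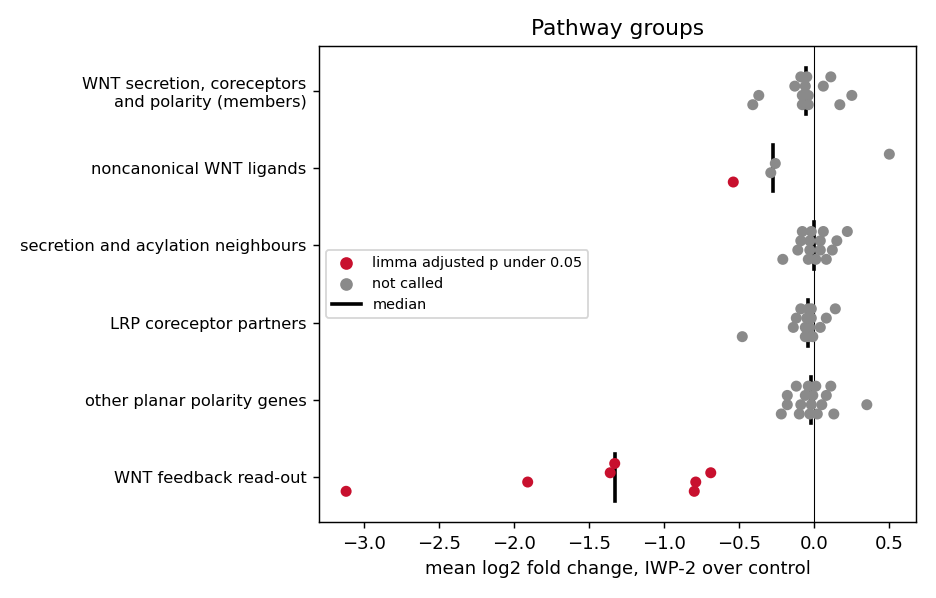
Mean log2 fold change of IWP-2 over control for the 14 tested probes of the WNT secretion, coreceptor and polarity genes and for the brightest tested probe of each gene in 5 neighbouring lists. Red points were called by limma at an adjusted p under 0.05, black bars are medians, and called genes are found among the noncanonical ligands (1) and the feedback genes (7).

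Cell type markers were measured beside these values. The 10 urothelial markers had a median of 0.38 in replicate 1 and 0.13 in replicate 2. Their summed signal was 128235 and 156343 in the controls and 162830 and 161311 with IWP-2. Limma called 0 of them, and 6 were higher at an unadjusted p under 0.05. The 6 lamina propria markers, which include genes that the study named from these arrays, had a median of −0.43 in replicate 1 and −0.16 in replicate 2, but they did not share a direction. Limma called 2 lower (*Aldh1a2* and *Itga4*) and 0 higher, and 3 were below 0 and 2 above 0 in both arrays. The 2 above 0 were *Foxf1* (mean 0.37, limma adjusted p = 0.167) and *Ptch1* (mean 0.26, limma adjusted p = 0.42). A dimmer probe of *Ptch1*, below the filter and not tested, went from 36 to 79 in replicate 1 and from 31.6 to 61.2 in replicate 2. Its log2 fold changes were 1.13 and 0.95. The summed signal of all 6 was 26316 and 20223 in the controls and 19690 and 19665 with IWP-2. The part of cell type shares in the *Ror1*, *Ror2* and *Lrp6* values was not tested.

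The 7 smooth muscle markers had a median of −0.04 in replicate 1 and 0.23 in replicate 2, and their summed signal was 74457 to 86469 in the controls and 85710 to 85913 with IWP-2. In replicates 1 and 2 the medians were −0.13 and 0.01 for 5 endothelial markers and 0.24 and 0.07 for 5 macrophage markers. They were −0.30 and −0.06 for 4 Schwann cell and neuron markers, and −0.15 and 0.84 for 2 adipocyte markers. Of these 2, *Adipoq* had opposite signs in the arrays (−0.55 and 1.4), and *Fabp4* was above 0 in both (0.25 and 0.28). Limma called 0 of the genes in these lists. Kidney markers were near the floor, with a summed signal of 75 and 84 in the controls and 75 and 90 with IWP-2, and 3 of 5 (*Nphs1*, *Slc12a1* and *Umod*) lay at the floor in all channels.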

How the data were processed

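The authors labelled amplified RNA with 2 dyes, hybridized it to Agilent arrays and deposited the scanner output. Its processed signals are intensities, background-subtracted and dye-normalized by Feature Extraction, named as version 12.2.0.7 in the file headers and 10.7.3.1 in the submitters' processing notes. The deposited log10 ratio served to check direction, and matched the processed signals within 0.001 for 82.827% and 83.089% of spots. The deposited series table holds a score per probe, a signed fold change with 1 decimal (column medians 1.0), whose direction and scale were found from the scanner values. Its centring is not given in the sources used here. Both arrays lay on 1 slide and shared 1 scan. The number of other value columns was 0.

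Control spots (17263) and flagged spots were left out, signals were normalized by loess within each array, spots of a probe were averaged, floored at 15 and expressed as log2. Probes whose mean over the arrays exceeded 100 in either condition were tested against 0 with limma 3.58.1 (R 4.3.3), lmFit and eBayes, with Benjamini-Hochberg adjustment over all 18403 probes. This leaves 1 residual degree of freedom per probe, and the number of arrays limits the precision. With the moderation across probes the median total was 6.19 degrees of freedom, so the errors rest largely on the other probes. Control and treated pools on an array are paired by the array. The same steps were tested on simulated data. Names and mm9 positions come from the array files; all 10 symbols matched RefSeq. All members were named with every probe. Of each list, the genes called or past the filter were named, and otherwise the 2 with the largest mean change, as well as *Axin2*. *Wnt5a*, *Wnt5b*, *Wnt4*, *Sp5* and the marker genes named were chosen after their values were seen. Some items are not reported here. Members and lists were chosen with earlier results of these data known. Alternatives covered background correction, normalization, flags, floor, filter, probe summary, pairing, each array alone, the limma trend, fold threshold and the deposited fold changes.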

Additional observations from a re-analysis of the deposited data

Results flagged for a closer look

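*Lrp5* had opposite signs in the 2 arrays, with 4 of 4 spots higher with IWP-2 in the female array and 4 of 4 lower in the male array. Its log2 fold change in the female array minus that in the male array was 0.20. This difference was not tested, because there was 1 array of each sex, and sex, dye orientation and pool cannot be told apart. Of all probes tested, 21.8% differed more between the arrays.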

How the results depend on the processing

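Limma called 0 of the probes that each alternative left in the test, not always the same 14, except with the deposited fold changes, which gave 3: *Vangl1* upstream (0.138), *Vangl2* middle (−0.138) and *Wls* (−0.138), each with limma adjusted p = 0.0164. Their values, rounded to 1 decimal, are identical in both arrays, as for 21.7% of all probes, which leaves no spread. The fold filter was passed by 0 to 1 probes when either array was left out, the 1 being the downstream probe of *Ror1* without the male array (−0.59). Each array alone leaves no residual degree of freedom and so no test. *Porcn* was 0.001 with median centring and *Ryk* 0 in the deposited fold changes. *Ror2* ranged from −0.48 to −0.26 (limma adjusted p 0.0995 to 0.87) and *Ror1* downstream from −0.59 to −0.24 (0.109 to 0.966). The average over both *Ror1* probes, which includes the dim upstream probe, was −0.09 (limma adjusted p = 0.704). The count over all probes, 142, was 284 with normexp, 235 with median centring (108 lower and 127 higher, against 100 and 42), 71 with probes averaged per gene name, 9 without the pairing of channels (no replicate block), 1776 with the deposited fold changes, and 0 both with no filter and with the well-above-background filter. The cause of these differences was not tested. The limma trend gave 161 lower and 0 higher. *Ror1* upstream, too dim for the filter used in the report, was tested with normexp, with no filter and with the well-above-background filter (limma adjusted p 0.671 to 1).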
